A study of Mus musculus with 28 samples.

Results

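The circadian clock genes described here are Arntl (also called Bmal1), Per1, Per2, Per3, Cry1, Cry2, Nr1d1, Nr1d2, Dbp and Tef, measured in mouse embryonic fibroblasts (MEFs) after oxidative or genotoxic stress. A probe set was taken as a member when its only gene symbol was one of these 10. The rule found 17 of the 45037 probe sets tested, and they stand for 9 of the 17097 genes with a single-symbol probe set. Nr1d1 had none. The activator arm held 2 probe sets (Arntl), the repressor arm 12 (Per1, Per2, Per3, Cry1, Cry2 and Nr1d2) and the PAR bZIP outputs 3 (Dbp and Tef). For each gene the probe set with the highest mean over all arrays is given, and the others are named where they differ.

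Total RNA of primary MEFs at passage 2, from embryos of 13.5 days, was hybridised to 28 Affymetrix arrays. WT and p66-/- (p66Shc knockout) cells gave 2 arrays each after doxorubicin (Doxo, 0.25 μg/ml, a topoisomerase poison that breaks DNA), 4 each after H2O2 (400 μM) and 4 each untreated. p53-/- (p53 knockout) cells gave 4 arrays labelled H2O2 and 4 labelled untreated, and none with Doxo. Both treatments lasted 4 h by the labels, which give the strain as C57Bl/6, while the study's methods name sv129 mice. The hour of harvest and whether untreated cells received the same wash and medium change are not given in the sources used here, nor is a synchronising step. Values are log2 signals, so that differences are log2 changes, and levels are compared within a probe set only. Adjusted p-values come from limma fitted on all 28 arrays with Benjamini-Hochberg adjustment over all probe sets, and a gene is said to have risen or fallen where its adjusted p was under 0.05. Since the arrays read RNA of whole cultures, fewer cells of a kind and less RNA per cell cannot be told apart.

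Of 10 fibroblast markers, 6 to 8 lay above the brightest of 23 control probe sets without a matching transcript, which averaged 2.05 to 6.76. The median value of these controls over all arrays was 2.59, so a value within their range can still lie well above their median. The mean of the fibroblast list was between 8.54 and 10.1 on all arrays, and none of 4 endothelial markers lay above the controls. Other lists did have markers above the controls, depending on the group. They were 0 to 3 of 5 epithelial, 1 to 3 of 5 blood and macrophage, 1 or 2 of 5 muscle and 0 or 1 of 4 neural markers. The lys spike-in separated the arrays numbered 1 and 2 (4.97 to 5.94) from those numbered 3 and 4 (3.01 to 4.15) in every untreated and H2O2 group. The labels name no array sets, and the 4 Doxo arrays read 4.15 to 4.44 for this spike-in, the lowest of them inside the range of the arrays numbered 3 and 4, so Doxo and a set of arrays cannot be told apart. The Shc1 probe set read 7.95 to 8.96 on p66-/- arrays and 7.61 to 8.40 on WT arrays. Its place relative to the deleted exon is not given in the sources used here, so it is no check of that genotype. Trp53 had no single-symbol probe set, so its signal could not be checked in the same way.

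The labels of the p53-/- arrays were at odds with their values. Over 45037 probe sets, the H2O2 change of p66-/- cells correlated with that of WT cells at r = 0.57, whereas the p53-/- change taken by the labels correlated with the WT change at r = -0.82. Of 8 p53 target genes, 7 rose in WT cells, while 1 rose and 4 fell in p53-/- cells by the labels. Among all genes, 4.95% were called in WT cells and 5.88% in p53-/- cells by the labels. Since these cells lack p53, its targets do not tell which way the labels run. Pooled over untreated and H2O2 arrays, 5 of the 8 were called lower in p53-/- than in WT cells and 0 higher. In that contrast 1.56% of all genes were called. The direction by the labels, taken against untreated p53-/- arrays, also opposes the one in the fold-change table supplied with the study. The legend of that table names untreated WT samples as its reference, so the references differ. The p53-/- arrays are therefore named by their labels throughout. The H2O2 change within p53-/- cells turns its sign if the labels are exchanged, while the pooled contrast with WT cells stays the same.

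In the mammalian clock, ARNTL and CLOCK bind E-boxes and drive transcription of the Per, Cry and Nr1d genes. PER and CRY proteins then repress ARNTL and CLOCK, and the NR1D receptors repress Arntl itself through ROR elements. The same E-box drive produces rhythmic DBP and TEF, which act on D-boxes, among them those of the Per genes, and carry the rhythm to output genes. Fibroblasts hold such a clock, but cells of an unsynchronised culture run out of phase, so that a culture's mean need not cycle.

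Promoter windows from RefSeq on GRCm38.p6, 250 bases before to 50 after each annotated start, were available for 9 of the 10 genes, as 12 windows, since Arntl, Per1 and Tef have 2 starts each. Per2 has no entry. The letters searched on both strands were CACGTG for the E-box, TTATGTAA and TTACGTAA for the D-box, TGACGTCA for the cAMP response element, and TAGGTCA and TGGGTCA for the core of a ROR element. Among 32851 windows of that length, 7.15% held CACGTG, 0.938% TTATGTAA, 0.119% TTACGTAA, 1.79% TGACGTCA, 2.61% TAGGTCA and 3.98% TGGGTCA. No 2 of the matches below overlap.

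CACGTG stood once in both Tef windows, 127 bases before the first start and 138 before the second, once before Cry1 (60 bases) and once before the first start of Per1 (166 bases). Per3 held TTATGTAA 2 times, 205 and 158 bases before its start. The second Arntl window held TAGGTCA 30 bases after the start. None of these letters stood in the windows of Dbp, Nr1d2, Nr1d1 and Cry2. The windows of Tef, Dbp and Nr1d2 are printed whole because these 3 genes changed most after Doxo against untreated cells, that of Arntl because it is the activator, and the stretches of Per1, Cry1 and Per3 to show their matches. Capitals mark the letters searched, and all are written 5′ to 3′ along the gene.
Tef, first start (chr15:81802423-81802722, + strand): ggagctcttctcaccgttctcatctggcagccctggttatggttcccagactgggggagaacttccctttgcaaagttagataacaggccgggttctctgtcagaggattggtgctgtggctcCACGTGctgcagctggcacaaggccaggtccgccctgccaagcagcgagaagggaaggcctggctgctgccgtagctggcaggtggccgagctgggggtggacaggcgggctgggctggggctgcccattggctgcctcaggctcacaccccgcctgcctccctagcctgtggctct
Tef, second start (chr15:81811164-81811463, + strand): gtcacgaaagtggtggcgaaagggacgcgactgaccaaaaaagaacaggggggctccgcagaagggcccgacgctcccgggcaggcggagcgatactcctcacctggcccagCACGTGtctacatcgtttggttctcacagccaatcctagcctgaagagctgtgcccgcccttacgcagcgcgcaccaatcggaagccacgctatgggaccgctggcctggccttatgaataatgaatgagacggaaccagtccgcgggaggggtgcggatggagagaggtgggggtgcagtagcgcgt
Dbp (chr7:45704997-45705296, + strand): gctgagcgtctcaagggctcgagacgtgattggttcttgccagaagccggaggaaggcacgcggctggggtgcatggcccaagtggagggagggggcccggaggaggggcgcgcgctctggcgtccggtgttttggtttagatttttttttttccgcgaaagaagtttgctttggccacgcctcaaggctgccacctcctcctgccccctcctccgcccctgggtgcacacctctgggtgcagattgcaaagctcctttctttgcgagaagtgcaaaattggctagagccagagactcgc
Nr1d2 (chr14:18239057-18239356, - strand): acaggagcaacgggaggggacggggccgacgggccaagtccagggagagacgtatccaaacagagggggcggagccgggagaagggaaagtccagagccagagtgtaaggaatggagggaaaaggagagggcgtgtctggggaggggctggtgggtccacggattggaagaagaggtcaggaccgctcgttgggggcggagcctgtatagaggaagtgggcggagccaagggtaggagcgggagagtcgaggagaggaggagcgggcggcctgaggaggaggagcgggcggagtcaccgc
Arntl, second start (chr7:113207261-113207560, + strand): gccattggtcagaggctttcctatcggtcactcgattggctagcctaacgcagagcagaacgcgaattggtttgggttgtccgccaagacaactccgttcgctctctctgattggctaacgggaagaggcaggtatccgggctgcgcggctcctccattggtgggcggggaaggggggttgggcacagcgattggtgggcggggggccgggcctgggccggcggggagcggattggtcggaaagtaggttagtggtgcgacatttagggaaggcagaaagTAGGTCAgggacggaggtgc
Per1, first start, stretch (chr11:69098772-69098799, + strand): gcacccaagtcCACGTGcagggatgtgt
Cry1, stretch (chr10:85185098-85185125, - strand): gtgccggtggtCACGTGgggtgcatgcc
Per3, stretch with the distal D-box (chr4:151044852-151044881, - strand): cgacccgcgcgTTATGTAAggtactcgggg
Per3, stretch with the proximal D-box (chr4:151044805-151044834, - strand): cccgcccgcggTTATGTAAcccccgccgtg

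**Figure D1:**
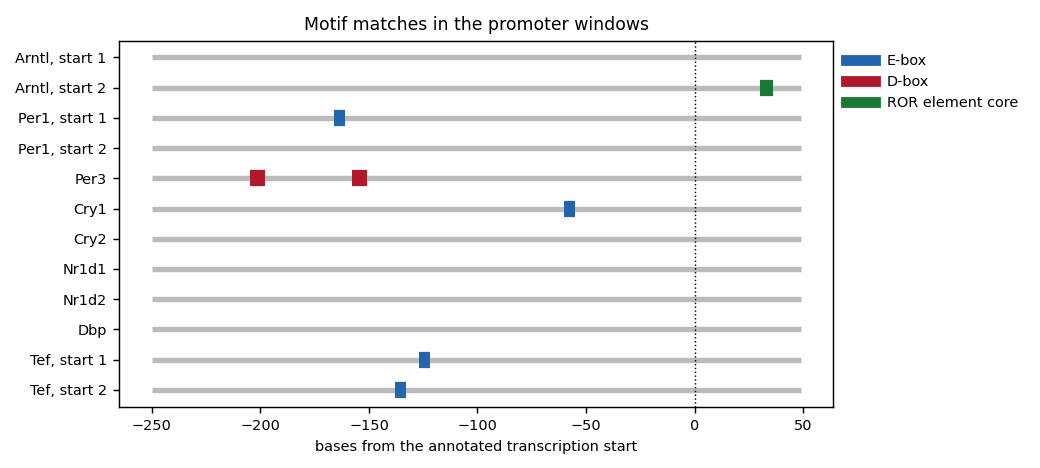
Map of 12 promoter windows of 9 clock genes, in bases from the annotated start (dotted line at 0), each grey bar running from 250 bases before to 49 after the first transcribed base. Coloured blocks are matches to the E-box, D-box and ROR element letters, found in the windows of Arntl, Per1, Per3, Cry1 and Tef.

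Tef, a PAR bZIP factor that activates genes through D-boxes, was the member that changed in most comparisons. After Doxo its log2 signal was 8.92 and 8.99 in WT and 9.21 and 8.97 in p66-/- cells. After H2O2 it was 8.04, 8.27, 8.53 and 8.62 in WT cells, against 7.10, 7.02, 7.39 and 7.52 in untreated WT cells. The p66-/- arrays gave 8.19, 7.99, 8.06 and 8.04 after H2O2 and 7.56, 7.04, 7.56 and 7.54 untreated. Treated arrays lay above the untreated ones of their genotype without overlap in all 4 of these contrasts. In p53-/- cells the order was the opposite by the labels, with 7.62, 6.99, 7.69 and 7.71 on arrays labelled H2O2 and 8.26, 8.22, 8.32 and 8.54 on arrays labelled untreated, again without overlap.

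Tef rose in WT cells after H2O2 by 1.11 ± 0.16 on the log2 scale (SE, n = 4 against 4, 2.16-fold, adjusted p = 0.000168, limma). The exact two-sided permutation p was 0.0286, the smallest that 4 against 4 allows. Arrays 1 and 2 alone gave 1.10 (adjusted p = 0.206) and arrays 3 and 4 alone 1.12 (adjusted p = 0.00022). Its change in p66-/- cells was 0.64 ± 0.16 (adjusted p = 0.241), positive in 4 of 4 pairs of arrays with the same number, and with the number as a block the same change passed the test (adjusted p = 0.0331). By the labels Tef fell by 0.83 ± 0.16 in p53-/- cells (adjusted p = 0.00246), and with exchanged labels it rose by 0.83. After Doxo Tef rose by 1.70 ± 0.19 in WT cells (n = 2 against 4, adjusted p = 1.68e-06) and by 1.66 ± 0.19 in p66-/- cells (adjusted p = 1.74e-06). Its dimmer probe set gave 0.59 (adjusted p = 0.0117) and 0.78 (adjusted p = 0.00132) after Doxo and no call in the 3 H2O2 contrasts.

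Dbp, the founding PAR bZIP factor and a direct E-box target with a wide daily rhythm in liver, rose with Doxo. It read 6.5 and 6.70 after Doxo in WT cells, against 4.20, 4.34, 4.403 and 4.63 in untreated WT cells. Dbp in p66-/- cells read 6.47 and 6.47 after Doxo and 4.30, 4.35, 4.69 and 4.65 untreated. The groups did not overlap in either genotype. All Dbp values, those after Doxo included, lay within the range of the control probe sets, though above their median of 2.59. The rise was 2.20 ± 0.46 in WT (4.61-fold, adjusted p = 0.00104) and 1.97 ± 0.46 in p66-/- cells (3.92-fold, adjusted p = 0.00217), the largest positive change of any member.

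The H2O2 arrays of Dbp were spread. WT cells read 3.996 and 4.38 on arrays 1 and 2 and 5.48 and 5.55 on arrays 3 and 4 after H2O2. The first pair lay within or below the untreated range and the second pair above it. Over all 4 the change was 0.46 ± 0.38 (adjusted p = 0.812), while arrays 1 and 2 taken alone gave -0.08 (adjusted p = 1.0) and arrays 3 and 4 alone 0.998 ± 0.13 (adjusted p = 0.00162). Array 1 of the p66-/- cells read 6.53 after H2O2, as high as the Doxo arrays, and the others 4.18, 4.80 and 4.95, for a change of 0.62 ± 0.38 (adjusted p = 1.0). In p53-/- cells the arrays labelled H2O2 read 5.10, 4.45, 5.44 and 5.44 and those labelled untreated 5.49, 5.43, 6.39 and 6.04. Their difference was -0.73 ± 0.38 (adjusted p = 0.333), or 0.73 with exchanged labels.

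Arntl, the activator that pairs with CLOCK, was lower on the Doxo arrays, where its values lay within the range of the control probe sets. It read 5.75 and 5.79 after Doxo in WT cells, against 7.30, 7.11, 6.37 and 6.90 in untreated WT cells. In p66-/- cells it read 5.73 and 6.10 after Doxo and 6.54, 7.18, 6.58 and 6.80 untreated. The Doxo arrays were below the untreated ones without overlap in both genotypes, yet neither difference passed the test, at -1.15 ± 0.47 (adjusted p = 0.0592) in WT and -0.86 ± 0.47 (adjusted p = 0.142) in p66-/- cells. Without untreated WT array 3 the WT value was -1.33 (adjusted p = 0.0411).

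After H2O2 Arntl read 8.50, 8.19, 6.92 and 7.68 in WT cells. It was higher than the untreated array of the same number in 4 of 4 cases, by at least 0.55, and the change of 0.90 ± 0.38 did not pass the test (adjusted p = 0.287). Arntl in p66-/- cells read 5.65, 8.42, 7.18 and 7.21 after H2O2, of which array 1 was the lowest of all 28 arrays, and the change was 0.34 ± 0.38 (adjusted p = 1.0). The p53-/- arrays labelled H2O2 read 7.18, 7.14, 6.62 and 6.71, and those labelled untreated 7.47, 7.76, 7.32 and 7.31, a difference of -0.55 ± 0.38 (adjusted p = 0.493), or 0.55 with exchanged labels. The second Arntl probe set stayed between 3.77 and 4.52 on all arrays, within the range of the control probe sets, and gave no call.

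Nr1d2 (REV-ERBβ), a nuclear receptor that represses Arntl, had the widest range of any member, with group means that spanned 3.41. It read 5.57 and 6.10 after Doxo in WT cells and 8.09, 7.45, 7.72 and 7.70 in untreated WT cells. Nr1d2 in p66-/- cells read 5.92 and 6.11 after Doxo and 8.87, 8.32, 7.38 and 7.48 untreated. The Doxo arrays were the 4 lowest of all 28, and their values lay within the range of the control probe sets. Nr1d2 fell by 1.91 ± 0.55 in WT (3.76-fold lower, adjusted p = 0.0103) and by 2.00 ± 0.55 in p66-/- cells (4.0-fold lower, adjusted p = 0.00655). Each call was lost without Doxo array 1 of its genotype, at -1.64 (adjusted p = 0.0946) and -1.91 (adjusted p = 0.0540). The second Nr1d2 probe set, with means of 3.48 to 3.81, went the other way in p66-/- cells after Doxo, at 0.30 (adjusted p = 0.0466).

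After H2O2 Nr1d2 read 9.71, 9.50, 7.49 and 9.30 in WT cells, so that array 3 alone lay inside the untreated range. The change was 1.26 ± 0.45 (adjusted p = 0.157). It passed the test without that array, at 1.76 (adjusted p = 0.0135), and with the number of the array as a block (adjusted p = 0.0136). The p66-/- arrays of Nr1d2 read 9.68, 9.63, 8.32 and 8.50 after H2O2, each higher than the same-numbered untreated array in 4 of 4 cases by 0.81 to 1.30, with a change of 1.02 ± 0.45 (adjusted p = 1.0). The p53-/- arrays labelled H2O2 read 8.94, 8.38, 8.13 and 8.10, and those labelled untreated 9.93, 9.77, 9.08 and 8.19. Their difference was -0.86 ± 0.45 (adjusted p = 0.337), or 0.86 with exchanged labels.

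Per1, a repressor that is also an early responder to serum, cAMP and glucocorticoids, read 6.22 and 6.59 after Doxo in WT cells. After H2O2 it read 6.01, 6.26, 6.74 and 6.66 there, against 6.02, 6.13, 5.69 and 5.99 in untreated WT cells. The p66-/- cells had 6.77 and 6.75 after Doxo, 6.10, 6.10, 6.02 and 6.17 after H2O2 and 6.11, 6.01, 6.24 and 6.04 untreated. Doxo arrays lay above the untreated ones in both genotypes, while H2O2 arrays overlapped them. Per1 rose after Doxo by 0.66 ± 0.17 in p66-/- (adjusted p = 0.00406) and by 0.44 ± 0.17 in WT cells (adjusted p = 0.0444). The WT call was lost without Doxo array 2 (0.26, adjusted p = 0.427) and without untreated arrays 1, 3 or 4 (0.47, 0.35 and 0.45, adjusted p 0.0570, 0.115 and 0.0605).

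The H2O2 change of Per1 was 0.46 ± 0.14 in WT cells (adjusted p = 0.0689), 0.05 on arrays 1 and 2 alone (adjusted p = 1.0) and 0.86 on arrays 3 and 4 alone (adjusted p = 0.0120). Without H2O2-treated WT array 1 it was 0.59 (adjusted p = 0.0105). In p66-/- cells the change was -0.0039 ± 0.14, with a 95% confidence interval from -0.29 to 0.28. In p53-/- cells the arrays labelled H2O2 read 6.16, 6.36, 5.95 and 6.16 and those labelled untreated 6.93, 7.01, 7.33 and 6.89. The 4 arrays labelled untreated held the 4 highest Per1 values of all 28 arrays. By the labels Per1 fell by 0.88 ± 0.14 (adjusted p = 0.00041), or rose by 0.88 with exchanged labels.

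The other repressors gave few calls. Cry1, the stronger of the cryptochrome repressors, had group means within 0.32 of each other, and none of its 5 changes passed the test. Its Doxo changes had confidence intervals from -0.51 to 0.32 in WT and from -0.49 to 0.34 in p66-/- cells. Cry2 read 5.92 and 6.04 after Doxo, 5.66, 5.96, 6.15 and 6.22 after H2O2, and 5.70, 5.56, 5.68 and 5.84 untreated in WT cells, and also passed in none of the 5. Its p53-/- difference by the labels was -0.46 ± 0.15 (adjusted p = 0.0903), negative in 4 of 4 pairs of the same number. It passed the test with the number as a block (adjusted p = 0.0339) and without the array labelled untreated 2, at -0.61 (adjusted p = 0.0157).

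Per2 and Per3 were dim. The main Per2 probe set lay between 3.62 and 4.52 on all arrays and that of Per3 between 4.35 and 5.14. Both lay within the range of the control probe sets. Dbp and Cry2 also had 0 arrays above the brightest control probe set, and Per1 had 5. Per2 passed the test in no treatment contrast at its main probe set, with 0.31 ± 0.16 after Doxo in p66-/- cells (adjusted p = 0.128), or 0.55 without Doxo array 1 (adjusted p = 0.0390). Its other probe set gave -0.72 there (adjusted p = 0.0433), so the probe sets disagreed in sign. Per3 read 4.77 and 5.14 after Doxo in WT cells, against 4.64, 4.64, 4.64 and 4.62 untreated. It rose by 0.32 ± 0.11 (adjusted p = 0.0226) and the call was lost without Doxo array 2 (0.14, adjusted p = 0.484). On p66-/- arrays Per3 read 4.77 and 5.01 after Doxo and untreated 4.64, 4.59, 4.63 and 4.62, a change of 0.27 ± 0.11 (adjusted p = 0.0502), or 0.39 without Doxo array 1 (adjusted p = 0.0371). Of the 4 other Per3 probe sets, 1 rose after Doxo in both genotypes (0.48 in WT and 0.43 in p66-/- cells) and another in p66-/- cells only by the test (0.50).

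**Figure D2:**
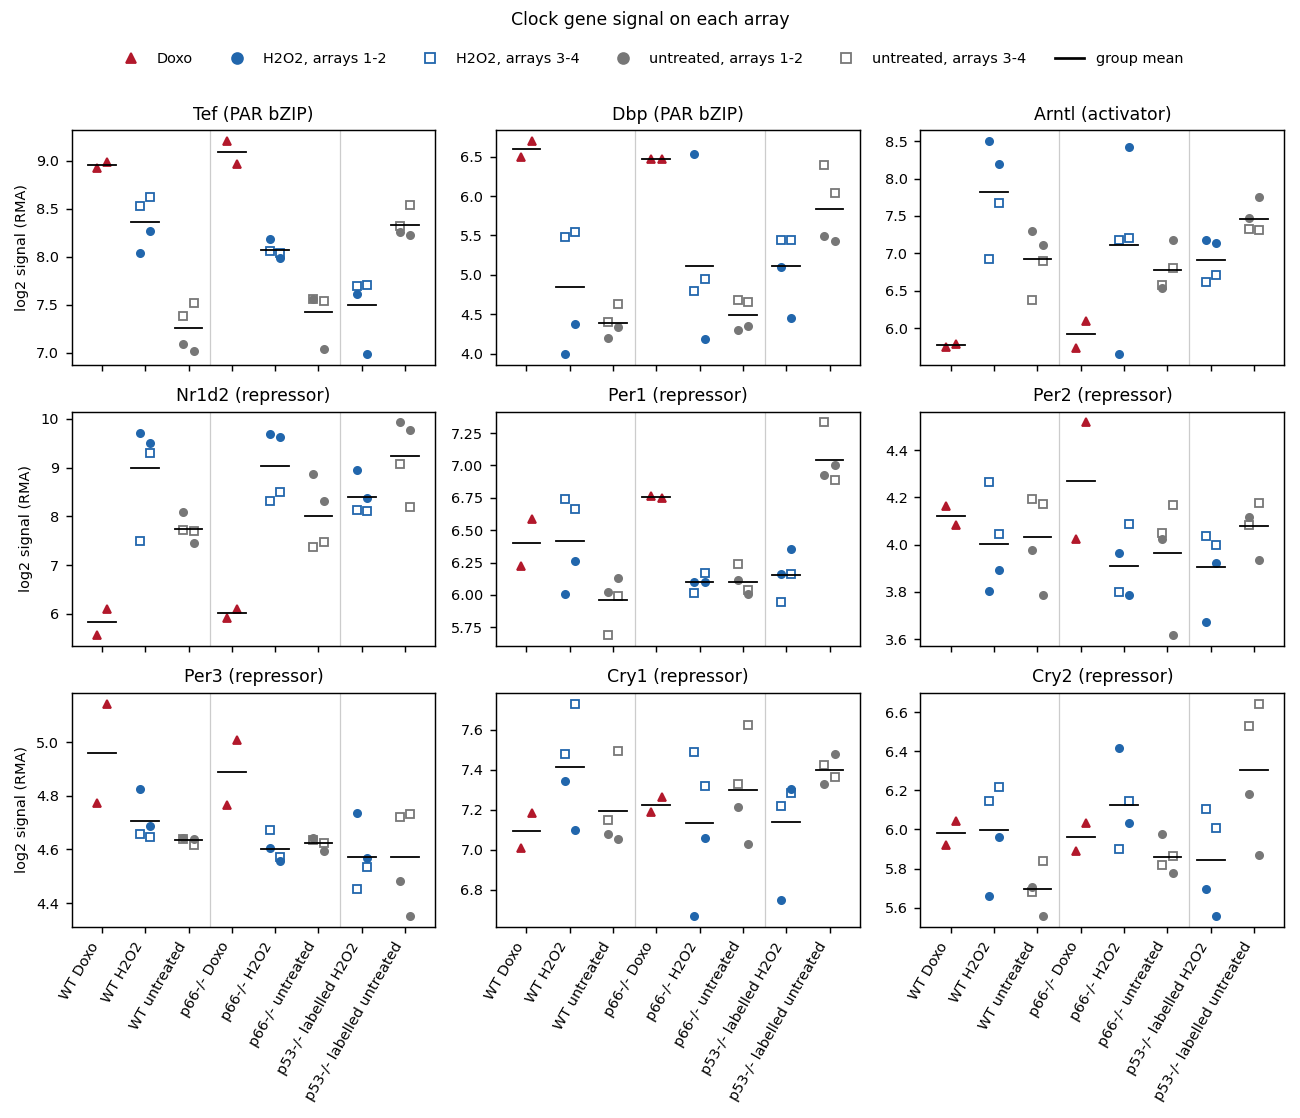
Log2 signal of the main probe set of each clock gene on every array, in 8 groups. Points are arrays (triangles, Doxo; filled circles, arrays numbered 1 and 2; open squares, arrays numbered 3 and 4) and bars are group means. The Doxo arrays lie highest for Tef and lowest for Nr1d2, and H2O2-treated p66-/- array 1 stands among them for Dbp (6.53) and Arntl (5.65).

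The H2O2 and Doxo contrasts of a genotype share their untreated arrays, so their values are given side by side. Counted over the 9 genes, 1 was called after H2O2 in WT cells (Tef), where 4.95% of the 17097 genes were called. Of the same 9 genes limma called 0 in p66-/- cells, the methods' t-test called 0 as well and 2 (Tef and Nr1d2) had an unadjusted p under 0.05, at a background of 0.0351% of genes. By the labels 2 were called in p53-/- cells, both lower (Tef and Per1), with 5.88% called among all genes. After Doxo 5 were called in WT cells (Tef, Dbp, Per1 and Per3 rose, Nr1d2 fell) against 43.1% of all genes, and 4 in p66-/- cells (Tef, Dbp and Per1 rose, Nr1d2 fell) against 49.2%. The shares of clock genes called after Doxo, 5 and 4 of 9, were thus near those of all genes.

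The medians of the 3 arms are given side by side, with no test between arms. After Doxo the median change of the PAR bZIP genes was 1.95 in WT and 1.82 in p66-/- cells, Arntl, which did not pass the test, was at -1.15 and -0.86, and the 6 repressors had medians of 0.19 and 0.18, beside 0.19 and 0.21 over all genes. Within the repressor arm Nr1d2 was at the low end and Per1 at the high end in both genotypes. After H2O2 the medians were 0.78 (PAR bZIP), 0.90 (activator) and 0.26 (repressors) in WT cells and 0.63, 0.34 and -0.01 in p66-/- cells, beside 0.02 and -0.02 over all genes. By the labels they were -0.78, -0.55 and -0.36 in p53-/- cells, beside -0.05 over all genes.

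The Doxo contrasts carried a shift of all probe sets, with medians of 0.134 in WT and 0.152 in p66-/- cells. Relative to it Tef rose by 1.57 and 1.51, Dbp by 2.07 and 1.82, and Nr1d2 changed by -2.05 and -2.15, all still past the test. Per1 was at 0.31 in WT (adjusted p = 0.191) and 0.51 in p66-/- cells (adjusted p = 0.0274), Per3 at 0.19 in WT cells (adjusted p = 0.209), and Arntl at -1.28 in WT cells (adjusted p = 0.0483) and -1.01 in p66-/- cells (adjusted p = 0.109). The mean of the 10 fibroblast markers was 8.54 to 8.91 on Doxo arrays and 8.88 to 10.1 on untreated WT and p66-/- arrays. Some marker lists of other cell types had more genes above the control probe sets on Doxo arrays. The mean of 5 epithelial markers was 6.18 to 6.54 on Doxo arrays and 5.04 to 6.10 on untreated WT and p66-/- arrays, with 3 of the 5 above the controls on Doxo arrays and 1 or 2 on untreated ones. Of 5 blood and macrophage markers 3 lay above the controls with Doxo and 1 untreated, with list means of 6.66 to 7.19 on Doxo arrays and 5.26 to 7.19 on untreated ones. Of 5 muscle markers 2 lay above with Doxo and 1 untreated, with list means of 5.48 to 6.06 on Doxo arrays and 4.88 to 5.87 on untreated ones. Their part in the clock gene changes was not tested.

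**Figure D3:**
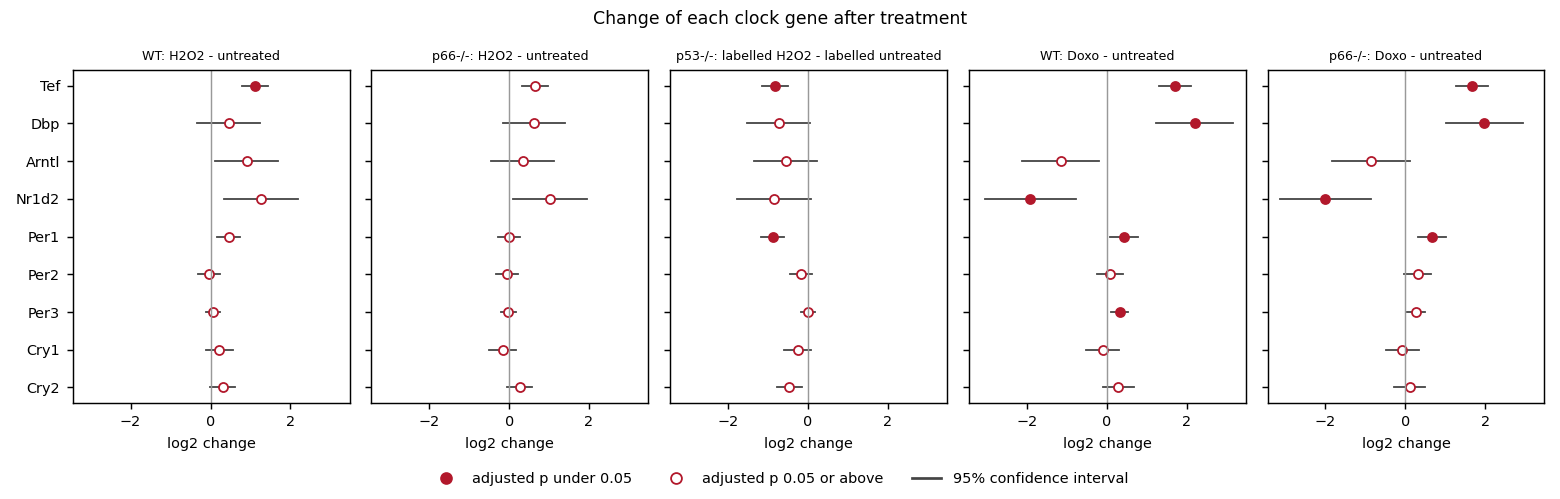
Log2 change of each clock gene in 5 contrasts, treated minus untreated (by the labels for p53-/-), with 95% confidence intervals from limma. Filled points have an adjusted p under 0.05: Tef in 4 of the 5 panels, Per1 in the p53-/- panel and both Doxo panels, Nr1d2 and Dbp in both Doxo panels, and Per3 in the WT Doxo panel.

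Doxo and H2O2 arrays were also set against each other directly, which asks whether the treatments left the clock genes at different levels. The same Doxo and H2O2 arrays entered the contrasts above. Nr1d2 was lower after Doxo by 3.17 ± 0.55 in WT (8.98-fold lower, adjusted p = 0.000193) and by 3.02 ± 0.55 in p66-/- cells (8.11-fold lower, adjusted p = 0.000202). Arntl was lower after Doxo by 2.05 ± 0.47 (adjusted p = 0.00238) in WT cells and by 1.20 ± 0.47 (adjusted p = 0.0403) in p66-/- cells. The p66-/- value for Arntl was -1.69 without H2O2 array 1 (adjusted p = 0.00185), and its call was lost without any other single array of the contrast (adjusted p 0.0601 to 0.203). Dbp was higher after Doxo by 1.75 ± 0.46 in WT (adjusted p = 0.00733) and 1.35 ± 0.46 in p66-/- cells (adjusted p = 0.0220).

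Tef was higher after Doxo than after H2O2 by 0.59 ± 0.19 in WT (adjusted p = 0.0253) and 1.02 ± 0.19 in p66-/- cells (adjusted p = 0.000305). In WT cells the Dbp call was lost without Doxo array 2 (1.65, adjusted p = 0.0822), and the Tef call without either Doxo array or without H2O2 arrays 1 or 2 (0.48 to 0.62). In p66-/- cells the Dbp call was lost without either Doxo array or without H2O2 array 2 (1.04 to 1.35) and was 1.83 without H2O2 array 1 (adjusted p = 0.00109). Per1 was higher after Doxo in p66-/- cells by 0.66 ± 0.17 (adjusted p = 0.00348), while the difference in WT cells was -0.01 (confidence interval -0.36 to 0.33). Per3 was higher by 0.29 ± 0.11 in p66-/- cells (adjusted p = 0.0326), a call lost without Doxo array 2 or H2O2 arrays 1, 2 or 4 (0.17 to 0.29). In WT cells its difference of 0.25 (adjusted p = 0.0756) was 0.44 without Doxo array 1 (adjusted p = 0.0168). Per2 differed by 0.36 in p66-/- cells (adjusted p = 0.0682), by 0.61 without Doxo array 1 (adjusted p = 0.0225) and by 0.42 without H2O2 array 4 (adjusted p = 0.0463), while its other probe set gave -0.70 (adjusted p = 0.0461). In all, 4 genes were called in WT cells, where 37.6% of all genes were, and 6 in p66-/- cells, where 53.6% were.

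The genotypes were compared over the untreated and H2O2 arrays together, a contrast that stays the same if the p53-/- labels are exchanged. Per1 was higher in p53-/- than in WT cells by 0.41 ± 0.10 (adjusted p = 0.0417), the 1 of 9 genes called at a background of 1.56%. The call was lost when any of 11 of the 16 arrays was left out, in each case with a change of 0.34 to 0.43 and an adjusted p of 0.0558 to 0.0922. Arrays 1 and 2 alone gave 0.51 (adjusted p = 0.0301) and arrays 3 and 4 alone 0.31 (adjusted p = 0.365). The 11 arrays were untreated WT arrays 1, 3 and 4, H2O2-treated WT arrays 1 and 2, p53-/- arrays 1, 2 and 3 labelled untreated and p53-/- arrays 1, 2 and 4 labelled H2O2. Dbp was 0.85 ± 0.27 higher in p53-/- cells (adjusted p = 0.144), 0.89 higher on arrays 1 and 2 alone (adjusted p = 0.280) and 0.81 higher on arrays 3 and 4 alone (adjusted p = 0.00196). Against untreated WT arrays, the p53-/- arrays labelled untreated had 4 genes called higher, Tef (1.08), Dbp (1.44), Cry2 (0.61) and Per1 (1.08), at a background of 6.29%, while the p53-/- arrays labelled H2O2 had 0 called by limma and 0 with an unadjusted p under 0.05, at a background of 0.129%. For p66-/- against WT cells over both conditions, limma and the methods' t-test called 0 of 9, none had an unadjusted p under 0.05, and the background was 0%.

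Whether the treatment changes differed between genotypes was tested as an interaction. Between p66-/- and WT cells 0 of 9 genes were called for H2O2 (2 with an unadjusted p under 0.05, Per1 and Tef) and 0 of 9 for Doxo (0 with an unadjusted p under 0.05), by limma and by the methods' t-test, and the background was 0% in both. For H2O2 the Tef change was lower in p66-/- cells by 0.47 ± 0.22, with a confidence interval from -0.93 to -0.01 (adjusted p = 1.0). The Per1 change was lower there by 0.46 ± 0.19 (interval -0.86 to -0.06, adjusted p = 1.0). For Doxo the Tef changes differed by -0.04, with an interval from -0.60 to 0.53, and the Dbp changes by -0.23, with an interval from -1.59 to 1.13.

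Between p53-/- cells by the labels and WT cells 4 of 9 genes were called, where 13.5% of all genes were. The differences of the changes were -1.95 ± 0.22 for Tef (adjusted p = 2.82e-06), -1.34 ± 0.19 for Per1 (adjusted p = 5.02e-05), -2.11 ± 0.63 for Nr1d2 (adjusted p = 0.0320) and -0.76 ± 0.22 for Cry2 (adjusted p = 0.0220). With exchanged labels 0 of 9 were called (0.0409% of all genes), and the differences were -0.28 for Tef, 0.42 for Per1, -0.40 for Nr1d2 and 0.16 for Cry2 (adjusted p of 1.0 for each), with unadjusted p under 0.05 for Per1 (0.0402). By the labels, the Cry2 call was lost without H2O2-treated WT array 4, p53-/- arrays 3 or 4 labelled untreated or p53-/- array 2 labelled H2O2 (-0.69 to -0.65). The Nr1d2 call was lost without any of 10 arrays (-2.10 to -1.87, adjusted p 0.0526 to 0.0691) and kept without untreated WT array 1, H2O2-treated WT array 3, p53-/- arrays 3 or 4 labelled untreated or p53-/- arrays 1 or 2 labelled H2O2. Arntl, at -1.46 ± 0.54 (adjusted p = 0.0926), passed with the array number as a block (adjusted p = 0.0380) and without H2O2-treated WT array 3, at -1.76 (adjusted p = 0.0335).

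Across the 28 arrays, which share their groups and numbered sets, Dbp followed Tef (r = 0.78, Spearman's rho = 0.76) and Arntl followed Nr1d2 (r = 0.72, rho = 0.70). Dbp ran against Arntl (r = -0.60, rho = -0.44). Over the 24 arrays without Doxo, r was 0.62 for Dbp and Tef, 0.49 for Arntl and Nr1d2 and -0.335 for Dbp and Arntl. After the group means were taken out, r between Arntl and Nr1d2 was 0.33 and r between Dbp and Arntl -0.85, the second being -0.73 without H2O2-treated p66-/- array 1. Cry2 followed Dbp at r = 0.63, and at 0.82 without Doxo arrays. H2O2-treated p66-/- array 1 had the lowest Arntl of all arrays beside a high Nr1d2 (9.68). Without it, r between Arntl and Nr1d2 was 0.88 over the other 27 arrays, Doxo included, and 0.685 after the group means were taken out. These are descriptions of the arrays at hand.

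**Figure D4:**
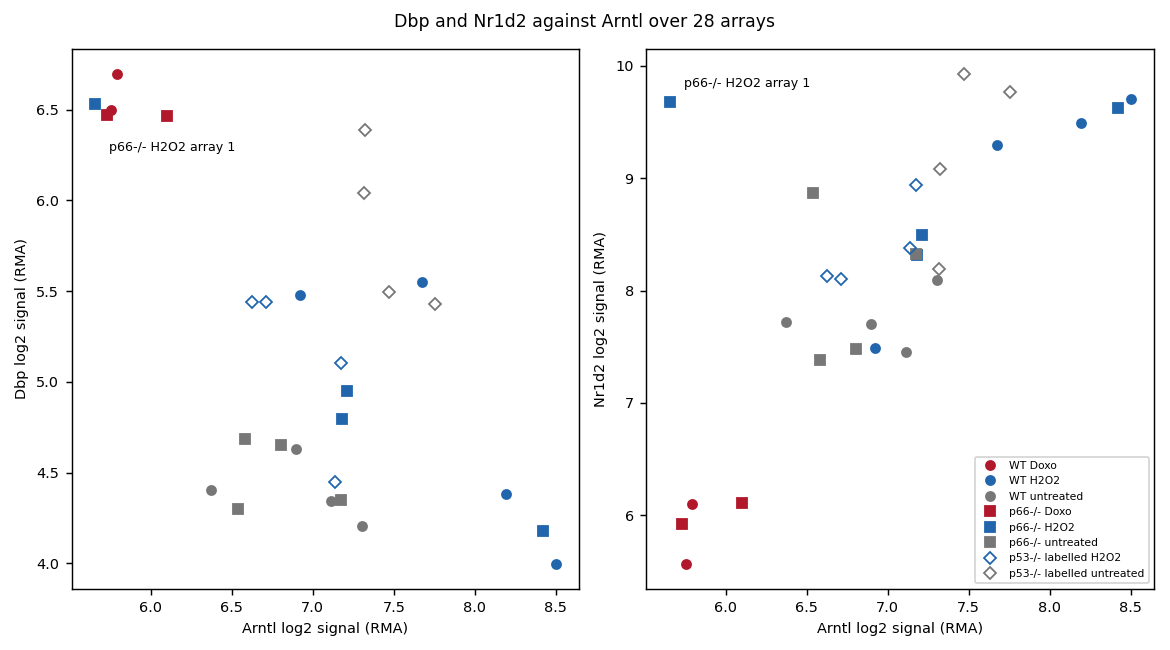
Dbp (left) and Nr1d2 (right) against Arntl, log2 signals on 28 arrays, by group. Dbp is high where Arntl is low on the Doxo arrays and on H2O2-treated p66-/- array 1, and Nr1d2 is lowest on the 4 Doxo arrays.

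The wider clock was followed in 24 of 29 further genes of the pathway. After H2O2 in WT cells 2 rose and 0 fell, namely Ciart, a repressor of ARNTL and CLOCK (0.88), and Rora, the receptor that activates Arntl through ROR elements (0.71). These 2 of 24 stand beside the 4.95% of all genes called. Limma called 0 of 24 in p66-/- cells (0.0351% of all genes), with 3 at an unadjusted p under 0.05. By the labels 1 rose and 3 fell in p53-/- cells (5.88% of all genes were called), among them Ciart (-1.37) and Rora (-0.66), whose signs turn with exchanged labels. After Doxo 5 rose and 10 fell in WT cells, where 43.1% of all genes were called, and 5 rose and 10 fell in p66-/- cells, where 49.2% were, with medians of -0.05 and -0.04 beside 0.19 and 0.21 over all genes.

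Those that fell after Doxo in both genotypes included Bhlhe40 (DEC1), an E-box repressor (-2.22 in WT and -2.30 in p66-/- cells), the kinase Gsk3b (-1.71 and -1.92) and Nono, a partner of PER proteins (-0.37 and -0.30). Usp2, a deubiquitinase with a daily rhythm, rose (0.97 and 0.92). Clock, Npas2 and Hlf were chosen after their values were seen. Clock, whose protein is the partner of ARNTL, fell (-3.14 and -3.03), and Npas2, which can stand in for CLOCK, rose (0.48 and 0.29). Hlf, the third PAR bZIP gene, gave 0.25 and 0.05 after Doxo and passed the test in neither genotype.

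**Figure D5:**
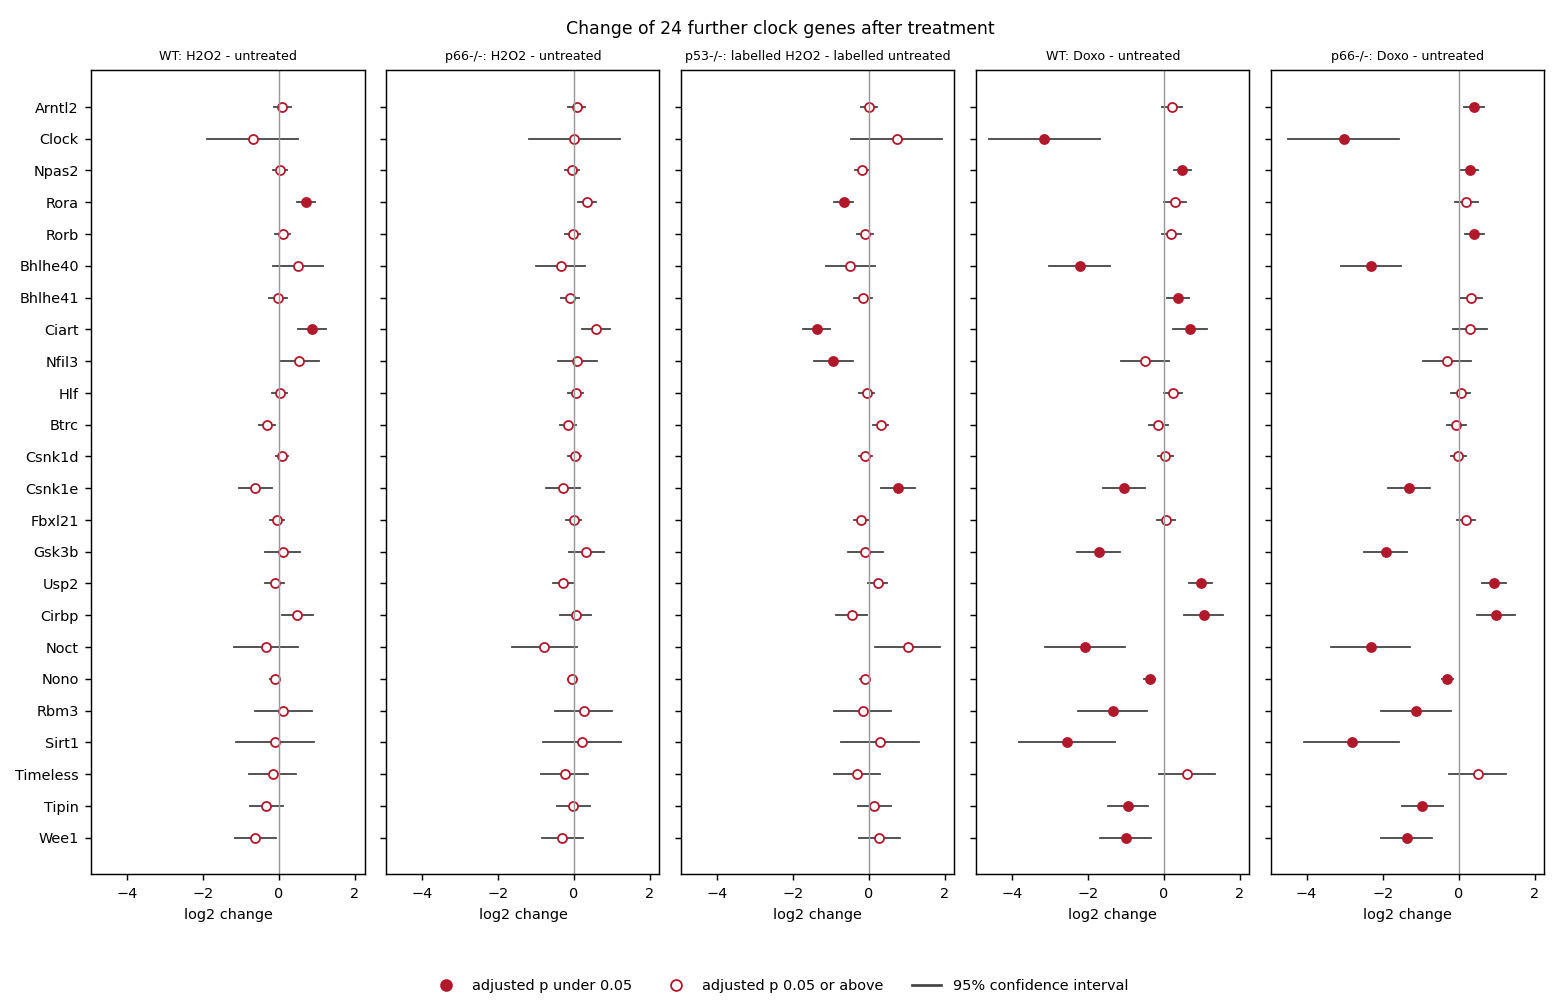
Log2 change of 24 further clock genes in the 5 contrasts, treated minus untreated (by the labels for p53-/-), with 95% confidence intervals from limma and filled points at an adjusted p under 0.05. Clock, Bhlhe40 and Gsk3b lie well below 0 in both Doxo panels, and Ciart and Rora are the filled points of the WT H2O2 panel.

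Lists of immediate early and glucocorticoid-responsive genes were also counted. Of 9 immediate early genes, which respond to serum and growth factors, 0 rose or fell after H2O2 in WT cells (1 with an unadjusted p under 0.05), and 4 fell after Doxo in WT and 6 in p66-/- cells. Of 7 glucocorticoid-responsive genes 1 rose and 1 fell after H2O2 in WT cells, and 1 rose and 4 fell after Doxo in each genotype. Among all genes 4.95% were called after H2O2 in WT cells, 43.1% after Doxo in WT and 49.2% after Doxo in p66-/- cells. The part of either list in the Per1 change was not tested.

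For each member the genes with the most similar pattern over the 28 arrays were looked up among all main probe sets. They were Leprotl1 for Tef (r = 0.93), Sox12 for Dbp (0.88), Irf2bp2 for Arntl (0.90), Glce for Nr1d2 (0.97), Gdnf for Per1 (0.87), Cyb5r1 for Cry2 (0.83) and Fam136a for Cry1 (0.74). For the dim genes they were Serpina4-ps1 for Per2 (0.84) and Scgb1b2 for Per3 (0.89). Among the 3 most similar genes of each member, 2 came from the wider clock list, Ciart for Cry2 (0.81) and Nfil3 for Cry1 (0.71). With 28 arrays in 8 groups, such values follow the group means and the numbered sets.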

How the data were processed

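RNA of 28 MEF cultures in 8 groups was measured on 1-colour Affymetrix arrays. The deposited values are log2 signals that the authors made by RMA (background correction, quantile normalization and probe set summary) in Partek 6.5, per the labels. No scanner files were used here, and array signals carry no depth, so precision is limited by how many arrays there were. The table holds 45141 probe sets. Without 104 array controls 45037 were tested, of which 551 had several symbols and 15588 none in GEO's platform annotation.

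Group means were fitted in limma 3.58.1 (R 4.3.3) over all arrays with 20 residual degrees of freedom, and p-values were adjusted by Benjamini-Hochberg over all probe sets. The script was tested on simulated data. The labels call the arrays biological replicates, and p-values measure the spread between these arrays. For each gene the probe set with the highest mean was used. Of the wider clock list, up to 6 genes of the lowest adjusted p were named, and for each member the 3 genes of highest Pearson r. Members and lists were chosen with earlier results of these data known.

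Same-numbered untreated and H2O2 arrays of a genotype deviated together from their group means (12 pairs, r 0.51 to 0.75, 10 of 12 highest with their own number). The exceptions were in p66-/- cells, where H2O2 array 3 was highest with untreated array 4 and H2O2 array 4 with untreated array 3. The number thus paired most of these arrays. The main fit had no term for the number, so variation shared by a pair entered its SE. An adjusted p of an H2O2 change there is not evidence of no change, and no paired test within a genotype was run. The 4 Doxo pairs did not deviate together (r -0.08 to 0.05). The replicate block fitted effects of the number shared by all genotypes and treatments, so it is not a paired test within a genotype. Alternatives were the methods' t-test, the study's thresholds (unadjusted p under 0.05 and 1.5-fold), a fit on the compared groups alone, leaving out the dimmest 40% of probe sets, further quantile normalization, centring on array medians, the replicate number as a block, each numbered set alone, another probe set per gene, exchanged p53-/- labels, untreated arrays only, and leaving out each array. The methods' t-test was an unmoderated test on the compared groups, adjusted by Benjamini-Hochberg over all probe sets, unlike the study's unadjusted threshold. The study's thresholds were applied to the limma p-values. Subtracting the median Doxo change, and untreated arrays only with exchanged labels, were chosen after seeing the data.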

Additional observations from a re-analysis of the deposited data

Results flagged for a closer look

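Within groups of 4 arrays, 1 array stood far from the other 3 in 4 of the 54 gene and group combinations looked at, while chance alone gives about 1 in 20. Tef was at 7.04 on untreated p66-/- array 2, where the others read 7.54 to 7.56. It was at 6.99 on p53-/- array 2 labelled H2O2, where the others read 7.62 to 7.71. Cry1 was at 6.75 on p53-/- array 1 labelled H2O2, with the others at 7.22 to 7.30. Per3 was at 4.62 on untreated WT array 4, with the others at 4.64, a gap that is wide only because those 3 nearly coincided.

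The H2O2 change differed between p53-/- cells by the labels and WT cells for 4 genes by the interaction test in limma. The differences were -1.95 for Tef, -1.34 for Per1, -2.11 for Nr1d2 and -0.764 for Cry2, and none of them passed the test with the p53-/- labels exchanged.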

How the results depend on the processing

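Counts of clock genes called out of 9 depended on the processing as follows. Calls of the methods' t-test were adjusted over all probe sets, so they are not the study's own calls. After H2O2 in WT cells (1 called), the methods' t-test gave 0, the study's thresholds 3, further quantile normalization 2, the replicate block 2, arrays 1 and 2 alone 0 and arrays 3 and 4 alone 3. In p66-/- cells (0 called) the study's thresholds gave 2 and the replicate block 1. In p53-/- cells by the labels (2 called) the methods' t-test gave 0, arrays 1 and 2 alone 0 and arrays 3 and 4 alone 4. After Doxo in WT cells (5 called) the methods' t-test gave 3. For Doxo against H2O2 the methods' t-test gave 0 in WT (4 called) and 3 in p66-/- cells (6 called), and the compared groups alone gave 2 and 3. For p53-/- against WT cells (1 called) the methods' t-test, the compared groups alone and quantile normalization gave 0 each, untreated arrays 4, and untreated arrays with exchanged labels 0. For the p53-/- interaction (4 called) the methods' t-test gave 2, arrays 1 and 2 alone 2 and exchanged labels 0. The cause of these changes was not tested.

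Leaving out 1 array gave 1 to 2 calls after H2O2 in WT, 0 to 0 in p66-/- and 2 to 3 in p53-/- cells, and 3 to 5 after Doxo in WT and 4 to 5 in p66-/- cells. For Doxo against H2O2 it gave 2 to 4 in WT and 3 to 5 in p66-/- cells, for the p53-/- contrast 0 to 1, for its interaction 2 to 5, and for the p66-/- contrast and both p66-/- interactions 0 to 0. With exchanged labels the p53-/- change was 0.88 for Per1 and 0.83 for Tef, and the interaction 0.42 for Per1 and 0.16 for Cry2. Per2 turned sign at its other probe set in p66-/- cells, at -0.72 after Doxo and -0.70 for Doxo against H2O2.

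With the replicate block, beside the calls given in the report, Arntl passed after Doxo in WT (-1.35, adjusted p = 0.0114) and p66-/- cells (-1.06, adjusted p = 0.0384), and Per2 passed in p66-/- cells after Doxo (0.41, adjusted p = 0.0160) and for Doxo against H2O2 (0.47, adjusted p = 0.00682), though Doxo arrays were not paired by number. The block changed no other call of a clock gene.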
